A study of Mus musculus with 24 samples.

Results

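The miR-192, miR-194 and miR-215 family was followed in serum extracellular vesicles (EVs) of mice after tibia surgery. Its members are 5 of the 1966 mature miRNAs in the deposited count table: mmu-miR-192-5p, mmu-miR-192-3p, mmu-miR-194-5p, mmu-miR-215-5p and mmu-miR-215-3p. They were taken by name, with no threshold on their counts. The table held 24 small RNA libraries, 6 per group, each from a wild type C57BL/6 mouse aged 14-16 weeks. Control mice had no surgery and received saline. The S6h, S24h and S72h mice were bled 6, 24 and 72 h after an open fracture of the tibia with an intramedullary pin, done under isoflurane with buprenorphine.

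Several features of the study limit what the groups can stand for. The methods state that all mice were male, and that the S24h and S72h mice had analgesia every day. They also state that mice of the surgery pool were assigned to the time points at random. Control is the set of control mice assigned to the 6 h time point, and the set assigned to 24 and 72 h was not analysed here. No group had anaesthesia without surgery, so in every comparison with Control the surgery, isoflurane and buprenorphine cannot be told apart. For S24h or S72h against Control, this also holds for the time after surgery, the repeated analgesia and the choice of control set. For S24h or S72h against S6h, time and repeated analgesia cannot be told apart. Whether S6h and the later groups were handled in the same batch is not stated, so a batch difference cannot be told apart either. EVs were precipitated from serum obtained after clotting and purified on a column, so that RNA released by blood cells during clotting can be present. In such bulk samples, fewer EVs from one tissue and less miRNA per EV cannot be told apart.

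A miRNA is cut from a hairpin precursor as a 5p and a 3p arm, and the arm that is kept guides an Argonaute protein to messenger RNAs that pair with its seed, the bases 2 to 8 from its 5′ end. miR-192-5p and miR-215-5p carry one seed and are therefore regarded as one targeting family, while miR-194 has a different seed and is linked to both through its genes, which lie beside theirs. All of them are abundant in intestinal, hepatic and renal epithelium, and their human genes are known targets of the tumour suppressor p53.

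The mature sequences of the 5 members show which of them can act on the same targets. They are given 5′ to 3′ from RefSeq (GRCm38.p6), with the seed in capitals.
mmu-miR-192-5p: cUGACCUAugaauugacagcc
mmu-miR-215-5p: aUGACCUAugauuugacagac
mmu-miR-194-5p: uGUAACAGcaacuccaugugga
mmu-miR-192-3p: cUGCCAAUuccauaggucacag
mmu-miR-215-3p: uCUGUCAUucuguaggccaau

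The seed UGACCUA occurred in 2 of the 1679 mature mouse miRNAs of the RefSeq table, which are miR-192-5p and miR-215-5p. Both are 21 bases long and share 18 of them. They differ by the substitutions C1A, A12U and C20A, with the base of miR-192-5p first and positions counted from 1 at the 5′ end. One of the 3 differences lies at the first base and another at the last base but one, so a read that is trimmed at both ends is told apart by the internal one alone. How many mismatches the alignment allowed, and how reads with several matches were counted, is not given in the sources used here. The seeds of miR-194-5p, miR-192-3p and miR-215-3p were each found in 1 mature miRNA of that table.

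Each hairpin of miR-194 lies beside a hairpin of one of the others. On chromosome 1 (GRCm38, plus strand), Mir194-1 at chr1:185313319-185313385 and Mir215 at chr1:185313581-185313692 are separated by 195 bases. Both sit inside 2010103J01Rik, an antisense RNA gene, and opposite to Iars2, the gene of a mitochondrial isoleucyl-tRNA synthetase, without overlap with an Iars2 exon. Mir215 overlaps an exon of 2010103J01Rik. On chromosome 19 (plus strand), Mir194-2 at chr19:6264643-6264728 and Mir192 at chr19:6264844-6264932 are separated by 115 bases, and no other gene is annotated there in GENCODE M21. Mature miR-194-5p is identical from both hairpins, so its reads cannot be assigned to the neighbour of Mir215 or to that of Mir192.

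The libraries were shallow. Their total miRNA counts ranged from 63956 to 471801, with medians of 117579 in Control, 177468 in S6h, 75030 in S24h and 94428 in S72h. CPM below is a miRNA's count per 1000000 counts of that total. A miRNA with no count could still be present at up to 6.36 CPM in the deepest library and 46.9 CPM in the shallowest, taking 3 counts as the limit that a count of 0 allows for counting error. Over all libraries miR-192-5p had 12722 counts, miR-215-5p 9250, miR-194-5p 1468, miR-215-3p 287 and miR-192-3p 3. The first 4 were among the 252 miRNAs that passed the filter of at least 10 CPM in at least 12 libraries, and miR-192-3p was not. Changes below come from edgeR's quasi-likelihood test over these 252 and all 24 libraries. A difference counts as called when its p, adjusted by the Benjamini-Hochberg method, is under 0.05 and its fold is at least 1.5.

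All 4 tested members had negative log2 fold changes in S24h against Control, and 2 of them were called. Over all 252 miRNAs this comparison called 11.9%, and the median log2 fold change was -0.21. S24h against S6h called 20.2%, with a median of -0.23. At 24 h both arms of miR-215 were called lower than in Control and than in S6h. miR-192-5p and miR-194-5p also had negative values in both comparisons and were not called. Whether members differed from each other was tested on ratios, given after the levels. At 6 h none of the 4 was called against Control, and the same was true at 72 h.

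miR-215-5p, the guide arm of the miR-215 hairpin, was the member whose ranges stood apart in both 24 h comparisons. Its CPM ran from 1372 to 8619 in Control, with a median of 3732, and from 1802 to 6055 in S6h, with a median of 3763. In S24h the replicates 1 to 6 had 262, 1016, 0, 135, 0 and 466 CPM, from 20, 75, 0, 9, 0 and 67 counts. Each of the 6 S24h libraries was below each Control and each S6h library. In S72h the CPM ran from 108 to 3087 with a median of 1003, which overlapped the range of every other group.

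The log2 fold change of miR-215-5p was -3.98 (SE 0.78, edgeR adjusted p = 0.000782, n = 6 per group) in S24h against Control, a 15.8-fold lower level. Against S6h it was -3.87 (SE 0.78, edgeR adjusted p = 0.000491), or 14.6-fold lower. The miRNAs called were 10 higher and 20 lower in the first comparison, and 16 higher and 35 lower in the other. miR-215-5p stood 4th and 10th by p in these. CPM ranges that do not overlap were found for 4.76% of the tested miRNAs between S24h and Control, and for 10.3% between S24h and S6h. Both comparisons use the same S24h libraries. Over the other settings tried, the log2 fold change against Control stayed between -4.25 and -3.77, and between -4.80 and -3.58 when any one library was left out.

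At 72 h the level of miR-215-5p lay between those of the other groups. All 6 S72h libraries were below the Control median, 4 of them below every Control library, yet the difference was not called (log2 fold change -1.68, SE 0.70, edgeR adjusted p = 0.176), in a comparison that called 3.57% of the miRNAs. Without the filter on low counts the adjusted p was 0.0185. The same values against S6h were -1.57 (SE 0.70, edgeR adjusted p = 0.167), where 9.92% were called, and 0.0181 without the filter. Against S24h the log2 fold change of S72h was 2.30 (SE 0.73, edgeR adjusted p = 0.127), where 0.397% were called. There the adjusted p was 2.61e-05 without the filter, 0.025 without S24h replicate 2 and 0.0436 without S72h replicate 5. CPM ranges of S72h and Control did not overlap for 1.19% of the miRNAs, and no member was among them. At 6 h the log2 fold change of miR-215-5p against Control was -0.11, with a 95% interval of -1.45 to 1.22.

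**Figure D1:**
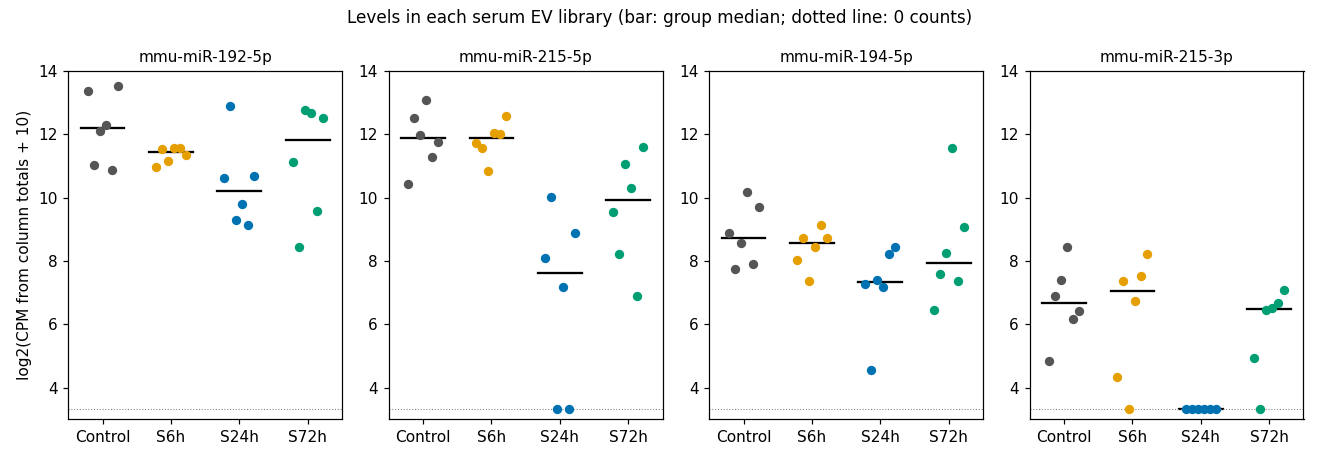
Level of each tested member in each library, as log2(CPM + 10) on the vertical axis, by group on the horizontal axis. Points are the 6 libraries of a group, black bars are medians, and the dotted line marks 0 counts. The miR-215-5p points of S24h all lie below those of Control and S6h, and all 6 S24h points of miR-215-3p lie on the line.

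The passenger arm miR-215-3p was read far less often than the 5p arm. Its counts in Control replicates 1 to 6 were 5, 7, 15, 45, 8 and 8, and those in S6h were 2, 25, 0, 46, 18 and 65. All 6 S24h libraries had a count of 0. In S72h the counts were 5, 0, 6, 9, 6 and 17. Every Control library thus had reads of this arm and no S24h library did, while S6h and S72h each had 1 library at 0.

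With 3 counts per library as the limit, the mean level in S24h could have reached 35.3 CPM. Control, with a mean of 126 CPM ± 112 (SD, n = 6), was then at least 3.58-fold higher, and S6h, with 121 ± 109, at least 3.42-fold higher. S72h, with 66.3 ± 47.3, was at least 1.88-fold higher. These limits compare group means and cover counting error in S24h only, not the spread between mice. S72h replicate 2 was itself at 0. edgeR called miR-215-3p lower in S24h than in Control (adjusted p = 0.00436) and than in S6h (adjusted p = 0.00201). The difference between S72h and S24h was not called (edgeR adjusted p = 0.0567, 0.0248 to 0.137 when any one library was left out, 0.0137 with DESeq2 and 0.00397 without the filter). The log2 fold change of S72h against Control was -0.86 (SE 1.08, edgeR adjusted p = 0.737), and that of S6h against Control was 0.00 to 2 decimals (SE 1.07).

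The split of the miR-215 hairpin between its arms could be followed in 3 groups. The hairpin is shown as RNA, 5′ to 3′, with the 5p and then the 3p arm in capitals (RefSeq, GRCm38.p6).
Mir215: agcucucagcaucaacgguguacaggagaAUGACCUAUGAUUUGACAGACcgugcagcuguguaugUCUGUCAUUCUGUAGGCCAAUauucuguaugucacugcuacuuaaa
The 3p arm made up 88 of 3039 counts of both arms in Control, or 2.90% (exact 95% interval 2.33 to 3.56%). In S6h it was 2.91% (2.48 to 3.40%) of 5353 counts and in S72h 4.41% (3.21 to 5.90%) of 974 counts. In S24h it was 0 of 171 counts, with an exact 95% upper limit of 2.13%. Taken as 3 counts, the limit would be 1.75%. These intervals cover counting error only, since the counts of a group come from 6 mice and PCR copies were not stated to be removed.

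miR-192-5p, which targets through the seed of miR-215-5p, had the most counts of the members over all libraries, although miR-215-5p was the higher of the pair in S6h. Its CPM ranged from 1843 to 11818 in Control, with a median of 4697 and a mean of 5934 ± 4238 (SD, n = 6). S6h was narrow, from 1983 to 3008 with a median of 2754 and a mean of 2627 ± 427. In S24h the replicates 1 to 6 had 1547, 7575, 610, 870, 556 and 1641 CPM. Replicate 2 was above 4 of the 6 Control libraries and the other 5 lay below all of them. In S72h the replicates had 2233, 339, 6936, 6558, 754 and 5882 CPM, so that 2 were below every Control and S6h library and 3 were above every S6h library.

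None of the differences of miR-192-5p was called by edgeR with all 24 libraries and the filter. The log2 fold change against Control was -1.15 (95% interval -2.35 to 0.06, edgeR adjusted p = 0.991) in S6h. In S24h it was -1.71 (SE 0.63, edgeR adjusted p = 0.0624), and in S72h -0.50 (SE 0.61, edgeR adjusted p = 0.737). The value at 24 h depended on S24h replicate 2: without that library it was -2.72 with an edgeR adjusted p of 0.00369, and the count of called members rose from 2 to 3. The adjusted p was 0.000732 without the filter on low counts, 0.0464 without Control replicate 2, 0.037 without S72h replicate 2 and 0.0428 when the 12 libraries of S24h and Control were fitted alone. Against S6h, the log2 fold changes were -0.56 in S24h (edgeR adjusted p = 0.594) and 0.65 in S72h (adjusted p = 0.673). Without S24h replicate 2 the first of these was -1.57 (adjusted p = 0.0558). S72h against S24h gave 1.21 (edgeR adjusted p = 0.439), and without S24h replicate 2 it was called (2.22, adjusted p = 0.0455).

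The 3p arm of miR-192 was near the limit of detection. It had 3 counts in S72h replicate 4, which is 27.1 CPM, and 0 in the other 23 libraries. Over all libraries it made up 0.0236% of the 12725 counts of both arms (exact 95% interval 0.00486 to 0.0689%), against 3.01% for the 3p arm of miR-215 (2.68 to 3.37%).

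The pair that shares a seed had a different make-up in S6h than in the later groups. miR-215-5p accounted for a median of 52.4% of the summed counts of miR-192-5p and miR-215-5p in Control, with a range of 11.6 to 73.4%, and for 58.2% in S6h, with a range of 44.1 to 70.3%. In S24h the median was 12.6%, from 0 to 22.1%, and in S72h it was 24.3%, from 12.5 to 45.8%. miR-215-5p was the more abundant of the pair in 3 Control and 5 S6h libraries and in no S24h or S72h library. The lowest Control shares, 11.6% in replicate 1 and 22.6% in replicate 6, were in the libraries with the highest miR-192-5p levels of all 24. Replicate 1 also had the lowest miR-215-5p level of Control.

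**Figure D2:**
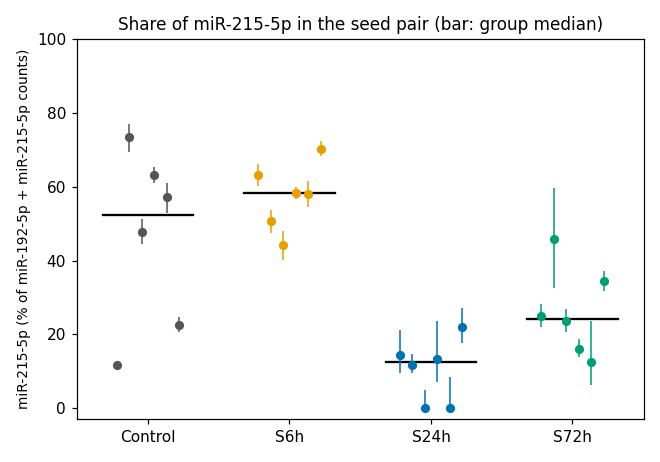
Share of miR-215-5p in the summed counts of miR-192-5p and miR-215-5p in each library, in percent, by group. Error bars are 95% Wilson intervals for counting error and black bars are group medians, at 52.4% in Control, 58.2% in S6h, 12.6% in S24h and 24.3% in S72h.

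A ratio of members within a library does not depend on how libraries are scaled to each other. The log2 ratio of miR-215-5p to miR-192-5p, with 0.5 added to each count, had a mean of -0.36 ± 1.66 (SD, n = 6) in Control and 0.45 ± 0.55 in S6h. It was -3.90 ± 2.28 in S24h and -1.59 ± 0.91 in S72h. S24h was lower than S6h by an exact two-sided permutation test (difference -4.35, p = 0.00216, the smallest that 6 against 6 libraries allow, adjusted p = 0.039 over 18 ratio tests). S72h was lower than S6h too (difference -2.03, exact permutation p = 0.00433, adjusted p = 0.039). The size of the 24 h difference depends on the added 0.5, since 2 S24h libraries had no miR-215-5p count: with 3 added it was -3.43 (adjusted p = 0.039) against S6h. Both calls were lost at an adjusted p of up to 0.0584 when any of the S6h replicates 1, 2, 4, 5 or 6 was left out, which also leaves fewer permutations. Against Control, the differences were -3.54 in S24h (exact permutation adjusted p = 0.0701) and -1.23 in S72h (adjusted p = 0.29), and they did not pass. With 3 added to each count the first of these was -2.62 (adjusted p = 0.0519). With 0.5 added it passed without Control replicate 1 (adjusted p = 0.026) and without S24h replicate 6 (adjusted p = 0.0468). S72h against S24h gave a difference of 2.31 (exact permutation adjusted p = 0.0701), a difference that passed without S24h replicate 6 (adjusted p = 0.039).

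The summed level of the pair, that is, the level of the seed UGACCUA, was described and not tested, since it is a score over members. Its median was 10110 CPM in Control, with a range of 4292 to 15267, and 6542 in S6h, from 4083 to 8614. In S24h the median was 1407, from 556 to 8591, where the highest value is again that of replicate 2 and the remaining 5 libraries reached at most 2106 CPM. In S72h it was 5398, from 626 to 9076.

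miR-194-5p, which has a seed of its own, was the least abundant of the 5p arms. Its CPM ran from 203 to 1140 in Control, with a median of 413, and from 155 to 546 in S6h, with a median of 374. In S24h it ran from 13.6 to 334 with a median of 152, and all 6 libraries were below the Control median. In S72h replicate 4 had 3049 CPM, from 338 counts, and the other 5 libraries lay between 77.5 and 523. Behind the median in S24h stood 15 counts per library, and the lowest value there was a single count.

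No difference of miR-194-5p was called by edgeR with all 24 libraries and the filter. Its log2 fold change against Control was -0.58 in S6h (SE 0.72, edgeR adjusted p = 0.991) and -1.80 in S24h (SE 0.76, edgeR adjusted p = 0.0989). In S72h it was 0.88 (SE 0.73, edgeR adjusted p = 0.561), and it turned to -1.32 (adjusted p = 0.228) without S72h replicate 4. Without that library the value at 24 h had an edgeR adjusted p of 0.0476. S72h against S24h gave 2.68 (SE 0.78, edgeR adjusted p = 0.0987), which became 0.41 (adjusted p = 0.97) without S72h replicate 4. That difference was called with DESeq2 (adjusted p = 0.0382), without the filter (0.00397) and without S72h replicate 1, 2 or 5 (0.0402 to 0.0451). Against S6h the log2 fold change was -1.21 in S24h (edgeR adjusted p = 0.298) and 1.47 in S72h (adjusted p = 0.24), the latter turning to -0.84 (adjusted p = 0.504) without S72h replicate 4.

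The 3p arms that accompany miR-194-5p are no members and were almost unread. mmu-miR-194-1-3p had 0 counts in all 24 libraries. mmu-miR-194-2-3p had 2 counts in S72h replicate 4 and 13 in S72h replicate 5. They differ between the hairpins, unlike the 5p arm, but these counts are too few to say which hairpin the miR-194-5p reads came from.

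**Figure D3:**
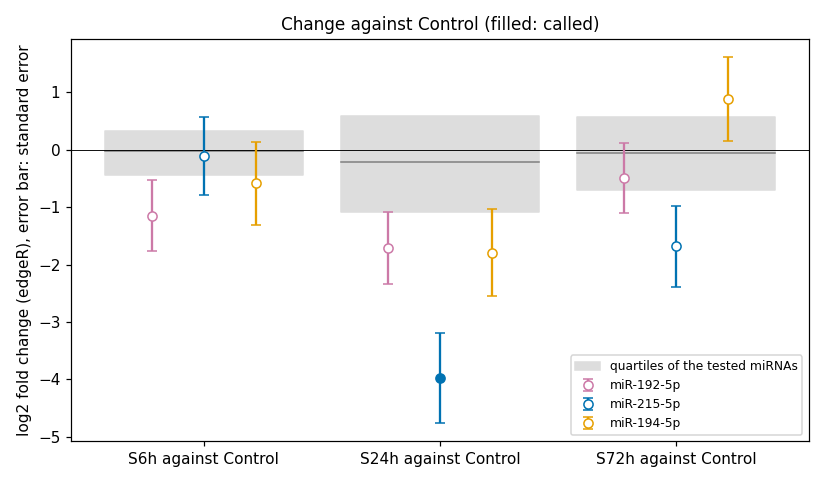
Log2 fold changes (edgeR, vertical axis) of the 5p members in S6h, S24h and S72h against Control, with standard errors as bars and filled symbols for called differences. Grey boxes span the quartiles of all tested miRNAs, with their median as a line. miR-215-5p in S24h, at -3.98, is the filled symbol.

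The comparison of S6h with Control called no miRNA at all, that is, 0% of 252. 9 miRNAs had an unadjusted p under 0.05 in edgeR, no member among them, and DESeq2 called 0 as well. The median log2 fold change of the 252 miRNAs was -0.02 in S6h, -0.21 in S24h and -0.06 in S72h, each against Control, and 0.09 in S72h against S24h.

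Levels of the members were set against each other library by library. Over the 24 libraries and on log2(CPM + 10), miR-192-5p and miR-194-5p had a Pearson r of 0.36 and a Spearman rho of 0.57, with r = 0.19 after group means were taken out. miR-215-5p and miR-194-5p had r = 0.34 (rho 0.59), and r = 0.00 within groups. Without the 2 libraries farthest from the miR-194-5p median, r for this pair was 0.52. miR-192-5p and miR-215-5p, which lie on different chromosomes, had r = 0.69 (rho 0.57) and r = 0.66 within groups. The arms miR-215-5p and miR-215-3p had r = 0.68 (rho 0.79) and 0.31 within groups. These are descriptions over libraries that share depth and group, and low counts can lower them.

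**Figure D4:**
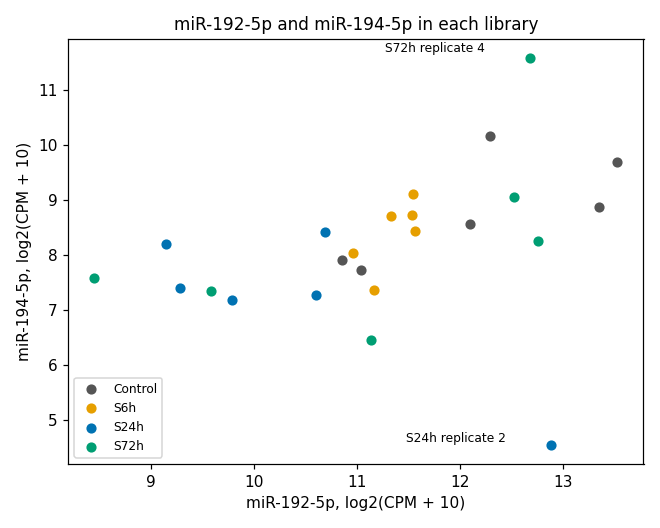
miR-192-5p (horizontal axis) against miR-194-5p (vertical axis) in each library, both as log2(CPM + 10), coloured by group. S24h replicate 2 has high miR-192-5p with 1 count of miR-194-5p, and S72h replicate 4 has the highest miR-194-5p.

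Ratios of miR-194-5p to the other 5p members did not pass in any comparison of all 24 libraries. The log2 ratio of miR-194-5p to miR-192-5p had means of -3.39 ± 0.80 in Control, -2.98 ± 0.49 in S6h, -3.28 ± 2.70 in S24h and -2.84 ± 1.70 in S72h (SD, n = 6), with exact permutation adjusted p from 0.5 to 0.961. The ratio of miR-215-5p to miR-194-5p was 3.03 ± 1.13 in Control and 3.42 ± 0.43 in S6h, against -0.62 ± 4.19 in S24h and 1.25 ± 1.89 in S72h. The closest to the threshold were S72h against S6h (difference -2.17, exact permutation adjusted p = 0.0649) and S24h against S6h (difference -4.05, adjusted p = 0.0714). Without S72h replicate 1 the first of these passed (adjusted p = 0.0195), and without S24h replicate 2 the differences of S24h from Control (-4.91) and from S6h (-5.30) both passed (adjusted p = 0.013).

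Outside the family, miRNAs with the most similar course were sought among those tested, by Pearson r on log2(CPM + 10) over the 24 libraries. For miR-192-5p they were miR-148a-3p (r = 0.85), miR-30b-5p (0.63) and miR-152-3p (0.61). miR-148a-3p kept r = 0.82 within groups and is known to be abundant in liver. The miRNAs most like miR-215-5p were miR-27b-3p (0.82), miR-29c-3p (0.76) and miR-22-3p (0.75), with 0.55, 0.34 and 0.45 within groups. For miR-194-5p the highest values were those of miR-101a-3p (0.63), miR-200c-3p (0.58) and miR-322-3p (0.56). Without the 2 libraries farthest from the miR-194-5p median, these were 0.42, 0.55 and 0.41. For miR-215-3p the highest values were those of miR-143-3p (0.73), miR-22-3p (0.64) and miR-145a-3p (0.64). The 3 lists for the 5p members had no miRNA in common.

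Marker miRNAs of tissues that make the family were read beside it. miR-122-5p, which hepatocytes make in great amounts, was the 1 tested miRNA of 3 in the liver list, and its CPM ran from 3674 to 159940 in Control and from 7892 to 52154 in S24h. It took 29.8% of all counts in S72h replicate 4, the library with the outlying miR-194-5p value, and 16.0%, 15.7% and 12.7% in Control replicates 1, 4 and 6. In S24h its highest value was in replicate 2, the library with the outlying miR-192-5p value. Its log2 fold change was -2.64 in S6h against Control (SE 1.01, edgeR adjusted p = 0.991), -1.98 in S24h against Control (SE 0.99, adjusted p = 0.176) and 0.66 in S24h against S6h (SE 0.96, adjusted p = 0.729). It was thus not called in the comparisons in which miR-215 was called, and in S24h against S6h its value had the opposite sign. Over 24 libraries it had r = 0.56 with miR-192-5p, 0.46 with miR-194-5p and 0.12 with miR-215-5p, values looked up after the list's levels had been seen. The part of miR-122-5p in the results was not tested. With the tested markers of the lists below, miR-215-5p had r from -0.49 (miR-196b-5p) to 0.72 (miR-200a-3p). Its r was 0.69 with miR-375-3p, 0.68 with miR-451a and 0.66 with miR-199a-3p. After group means were taken out, these were 0.51, 0.48 and 0.31, with 0.42 for miR-200a-3p and 0.01 for miR-196b-5p. What these values reflect was not tested.

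The epithelial list, with the miR-200 family, miR-375, miR-31 and miR-203, had 6 of 8 miRNAs tested. All 6 had negative log2 fold changes in S24h against Control, with a median of -1.23, and none was called. In S24h against S6h 2 were called lower. Summed over the list, the CPM was 1698 to 5513 in Control, 1452 to 3968 in S6h, 761 to 2495 in S24h and 1077 to 2317 in S72h. The kidney list had 3 of 4 miRNAs tested and none called in S24h against Control, with a median of 2.02 set by a miRNA that was at 0 in most Control libraries, and summed CPM of 5061 to 10325 in Control and 5716 to 11108 in S24h. In S24h against S6h miR-196b-5p of this list was called higher (log2 fold change 4.02, edgeR adjusted p = 0.0435). The list of the miR-34 family, which p53 also induces, had 0 of 5 miRNAs tested: miR-34a-5p was read in 6 libraries and miR-34b-5p and miR-34c-3p in none.

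The 5 red cell miRNAs were summed. Their CPM had medians of 134846 in Control, 115905 in S6h, 63458 in S24h and 61470 in S72h. The summed CPM of miR-451a, both miR-144 arms, miR-486a-5p and miR-486b-5p ran from 104004 to 189168 in Control, 72815 to 123877 in S6h, 29669 to 121689 in S24h and 41660 to 170191 in S72h. In S24h against Control 3 of the 5 were called lower, miR-451a, miR-486a-5p and miR-486b-5p, with log2 fold changes of -1.42, -1.26 and -1.22. In S24h against S6h 1 of the 5 was called lower, and in S72h against Control none was. With library scaling computed without these miRNAs, which changes the scaling alone, both arms of miR-215 were called lower in S24h than in Control and than in S6h. Of the 4 platelet-rich miRNAs, miR-199a-3p was called lower in S24h than in Control and the list's median was -0.31. miR-223-3p had a negative log2 fold change too (-0.80), while those of miR-126a-3p (0.64) and miR-21a-5p (0.17) were positive, and none of the 3 was called. In S24h against S6h 2 of the 4 were called lower, miR-199a-3p (-2.26, edgeR adjusted p = 0.000491) and miR-223-3p (-1.06, adjusted p = 0.0226). The part of blood cell RNA in the levels of the family was not tested.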

How the data were processed

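Small RNA was sequenced from serum EVs of 24 mice, 6 per group, as grouped by the sample labels. The authors trimmed adapters, aligned reads to GRCm38/mm10 with Bowtie, kept reads of 20 to 24 bases used featureCounts to assign them to mature miRNAs annotated in miRBase, and deposited the raw counts in 1 table, used here unchanged. Removal of PCR copies by the random adapter bases is not stated, so counts are not molecules. SAMtools is named in the processing notes.

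The members and the marker lists were chosen with earlier results of these data known. Members were named by rule, and the miRNAs named beside each member are the 3 outside the family with the highest Pearson r. CPM was computed from column totals. edgeR 4.0.16 (limma 3.58.1, R 4.3.3) was run with TMM scaling, all 24 libraries in one model and 6 comparisons. Ratios were tested with 924 permutations (Python 3.11.15, NumPy 2.4.6). The tests were checked on simulated data. Alternatives were DESeq2 1.42.0, other scalings, filters, thresholds and fits, thinning to 63956 counts, the replicate number as a block and leaving out each library. No libraries were duplicates (lowest chi-square per degree of freedom 16.6 over 276 pairs). Hairpin positions are from RefSeq and GENCODE M21 on the same build, and all 5 members were matched by name. Library totals from 63956 to 471801 limit the precision of low miRNAs.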

Additional observations from a re-analysis of the deposited data

Results flagged for a closer look

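Single libraries stood far from the rest of their group in 4 of the 28 group and measure pairs checked by Dixon's ratio, where about 1.4 are flagged by chance. The ratio was 0.845 for miR-192-5p in S24h replicate 2 (7575 CPM, the other 5 at most 1641), 0.850 for miR-194-5p in S72h replicate 4 (3049 CPM, the other 5 at most 523) and 1 for miR-192-3p in S72h replicate 4 (3 counts, the other 5 at 0). The log2 ratio of miR-194-5p to miR-192-5p in S24h replicate 2 gave 0.682, with 1 count of miR-194-5p beside 559 of miR-192-5p. For miR-192-3p the ratio is 1 by construction, since the other 5 libraries are tied, so that flag cannot be set against the 1.4.

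Both arms of miR-215 were called lower in S24h than in S6h. Neither arm was called in S72h against S6h or against S24h with all 24 libraries and the filter. The log2 fold change of S24h against S6h was -3.87 for miR-215-5p and -7.15 for miR-215-3p, where the latter is fitted to counts of 0 and depends on the prior count. The log2 ratio of miR-215-5p to miR-192-5p differed by -4.35 in S24h against S6h and by -2.03 in S72h against S6h. S24h and S72h mice had analgesia every day, so time and repeated analgesia cannot be told apart, nor can a batch difference.

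Counts outside the tested miRNAs were seen in S72h and not in Control, with 3 counts of miR-192-3p and 15 of miR-194-2-3p. At this depth, a count of 0 in Control allows up to 11.4 to 46.9 CPM per library.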

How the results depend on the processing

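Both arms of miR-215 were called lower in S24h than in Control and than in S6h under every setting that tested them, and with any one library left out. The count of called members was 2 in both comparisons, and 1 with a filter of 100 CPM in 12 libraries, which removes miR-215-3p. In S24h against Control it was 3 without a filter, with the libraries compared fitted alone, and without Control replicate 2, S24h replicate 2, S72h replicate 2 or S72h replicate 4. Without a filter on low counts 1 member was called in S72h against Control and 1 in S72h against S6h, where it was 0. In S72h against S24h it was 0, but 2 with DESeq2, 3 without a filter, and 0 to 3 when a library was left out (S6h replicate 1 or 3, S24h replicate 2, S72h replicate 1, 2 or 5). Calls over all miRNAs tested, whose number differs with the filter, ranged over these settings and left-out libraries from 11 to 50 (30 as reported) in S24h against Control, 23 to 60 (51) in S24h against S6h, 0 to 22 (9) in S72h against Control, 2 to 35 (25) in S72h against S6h, 0 to 10 (1) in S72h against S24h and 0 to 2 (0) in S6h against Control. The cause of these shifts was not tested.

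Directions turned only for differences that were not called. In S6h against Control miR-215-5p was 0.069 under the replicate block and -0.31 to 0.29 with a library left out, and miR-215-3p was 0.043 with TMM without red cell miRNAs, 0.0098 with 10 CPM in 6 libraries and -0.48 to 0.67 with a library left out. miR-194-5p in S72h against Control was -0.072 under the replicate block and -1.32 to 1.31 with a library left out, and in S72h against S6h -0.84 to 1.71. miR-192-5p in S72h against S6h ran from -0.026 to 0.89. The log2 ratio of miR-194-5p to miR-192-5p ran from -0.36 to 1.16 in S24h against Control, -0.77 to 0.75 in S24h against S6h (0.0041 with a pseudocount of 3), -0.26 to 0.53 in S72h against S6h and -0.61 to 0.91 in S72h against S24h. 

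Same-numbered libraries of different groups deviated together little (r from -0.28 to 0.19 over 36 pairs, 7 of them over 0.1). A pairing of mice by number is not stated, and low r cannot exclude one. With the number as a block, 2 members were called in S24h against Control, and the ratio of miR-215-5p to miR-192-5p lost its calls in S24h and S72h against S6h (adjusted p = 0.141, exact permutation test within pairs). With 6 pairs the smallest possible p is 0.03125, so this test could hardly pass over 18 ratios and says nothing about stability.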
